A study of Mus musculus with 12 samples.

Results

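Transcripts of 10 macrophage genes were followed through 12 RNA sequencing libraries of sorted mouse pancreatic tumour cells. The genes were chosen by name: C1qa, C1qb, C1qc, Lyz2, Cd68, Csf1r, Adgre1, Trem2, Apoe and Fcer1g. All 10 were in the table of 24493 gene symbols, and all 10 were among the 13662 genes that passed the filter on low values, which asked for 3 or more libraries with a TPM of 1 or more. TPM is a relative transcript abundance that allows for transcript length and sums to the same total in every library.

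The cells, called 6649c2, had been implanted under the skin of C57BL/6 mice and were recovered from the tumours by sorting. There were 4 genotype labels with 3 libraries each: WT; EgfrKO, labelled as a knockout of the epidermal growth factor receptor gene; Klf5KO, of the gene of an epithelial zinc finger transcription factor; and Smad4KO, of the gene of a transcription factor that acts downstream of TGF-beta receptors. No treatment, age or sex of the mice, and no sorting gate, is given in the sources used here. Whether each knockout was grown as 1 clone or from a pool is not stated, so clonal differences and effects of the targeted gene cannot be told apart.

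Egfr was at 3.77 to 5.16 TPM in EgfrKO and 12.3 to 14.0 TPM in WT. Smad4 was at 28.9 to 33.4 TPM in Smad4KO and 70.9 to 79.8 TPM in WT. Klf5 was at 87.8 to 100.5 TPM in the Klf5KO-labelled libraries, overlapping the 97.1 to 130 TPM of WT, so its transcripts do not check that label. Markers of the labelled epithelial tumour cells were abundant, and the list led by the keratins Krt8 and Krt18 summed to 4650 to 9280 TPM per library. Not all genes of that list were high: Epcam was at 11.4 to 14.6 TPM in WT but 1.20 to 1.36 in EgfrKO and 0.314 to 0.679 in Klf5KO, Krt7 was at 3.67 to 6.33 TPM in Klf5KO, and Cldn4 was at most 1.34 TPM in any library (these 3 were chosen after their values were seen). The median difference of all tested genes from WT was 0.14 in EgfrKO, 0.31 in Klf5KO and 0.10 in Smad4KO on the log2 scale, and median-of-ratios scaling brought these to 0, -0.01 and 0. That scaling turned the split of calls against WT from 4277 higher and 1643 lower to 2462 and 3029 in EgfrKO, from 7536 and 1518 to 3357 and 3755 in Klf5KO, and from 4400 and 2381 to 3427 and 3381 in Smad4KO.

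Macrophages are phagocytes of tissues and tumours, and the 10 genes cover what they secrete, sense and digest. C1qa, C1qb and C1qc encode the chains of C1q, which recognises targets for the classical complement pathway. C1q is made chiefly by macrophages, whereas the C1r and C1s proteases that complete the C1 complex are made by many cells. Csf1r encodes the receptor for the growth factors CSF1 and IL-34, on which most macrophages depend for survival. Trem2 encodes a receptor for lipids and apolipoproteins, and Fcer1g the signalling chain shared by activating Fc receptors. Apoe encodes a lipid carrier, Lyz2 the macrophage lysozyme, Cd68 a protein of lysosomes and endosomes, and Adgre1 the F4/80 surface antigen. Not all are specific to macrophages: Cd68 and Apoe transcripts occur in other cells.

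The C1q genes lie side by side within 18719 bp of chromosome 4 (136880126 to 136898844, RefSeq, GRCm38.p6, the same assembly as mm10). Of the others, Apoe is on chromosome 7 (19696244 to 19701310), Lyz2 on chromosome 10 (117277541 to 117282272), Cd68 on chromosome 11 (69664213 to 69666170), Trem2 (48346401 to 48352276) and Adgre1 (57358581 to 57483529) on chromosome 17, and Fcer1g on chromosome 1 (171229572 to 171234349). Lyz2 lies 5522 bp from its near copy Lyz1, and how reads were divided between them was not tested. Lyz1 was listed at 2.14 to 15.8 TPM, against 69.3 to 789 TPM for Lyz2.

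The start regions of several of the 10 genes are shown for the purine-rich letters GAGGAA. These letters are the core of the PU box, from which the macrophage factor PU.1 (gene Spi1) has its name. RefSeq promoter windows were found for 7 of the 10 genes. The letters GAGGAA, on either strand and within the 250 bases before the start, were in 23.3% of all 32851 windows and in 6 of the 9 windows of these 7 genes, 5 genes in all, with 3 windows for Apoe. The stretches below are 100 bases each, printed 5' to 3' on the gene's strand, with GAGGAA or its reverse complement TTCCTC in capitals. C1qb (bases 100 to 1 before the start, chr4:136886201-136886300, minus strand), C1qc (bases 250 to 151, chr4:136893065-136893164, minus strand), Cd68 (bases 250 to 151, chr11:69666321-69666420, minus strand) and Trem2 (bases 100 to 1, chr17:48346301-48346400, plus strand) hold a match, and Lyz2 (bases 100 to 1, chr10:117282273-117282372, minus strand) is shown as a window without one.
C1qb: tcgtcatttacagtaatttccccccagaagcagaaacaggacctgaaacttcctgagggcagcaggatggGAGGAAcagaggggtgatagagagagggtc
C1qc: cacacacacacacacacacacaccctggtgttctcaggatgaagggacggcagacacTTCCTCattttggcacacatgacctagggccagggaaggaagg
Cd68: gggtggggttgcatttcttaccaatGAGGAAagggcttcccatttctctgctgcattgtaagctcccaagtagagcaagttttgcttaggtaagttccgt
Trem2: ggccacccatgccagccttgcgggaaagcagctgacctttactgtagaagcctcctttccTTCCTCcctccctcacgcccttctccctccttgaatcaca
Lyz2: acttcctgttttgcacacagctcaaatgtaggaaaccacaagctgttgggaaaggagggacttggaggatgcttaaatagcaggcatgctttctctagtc
The match begins 30 bases before the start in C1qb, 193 in C1qc, 225 in Cd68 and 40 in Trem2. A match describes the letters only, and whether PU.1 acts on these genes was not tested. The windows of Lyz2 and Fcer1g hold none.

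All 10 genes were well above 0 in WT, and together they made up 0.130% to 0.258% of WT transcripts. Their summed level was 1363, 2579 and 1305 TPM in WT replicates 1, 2 and 3, and 2472, 2428 and 2369 TPM in EgfrKO. It was 1878, 2969 and 3025 TPM in the Klf5KO-labelled libraries and 1317, 291 and 1317 TPM in Smad4KO. The EgfrKO libraries were nearly alike, while 1 library of each other genotype stood apart from its group. In bulk RNA, fewer macrophages, less of these transcripts per macrophage and less of them from other cells cannot be told apart.

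**Figure D1:**
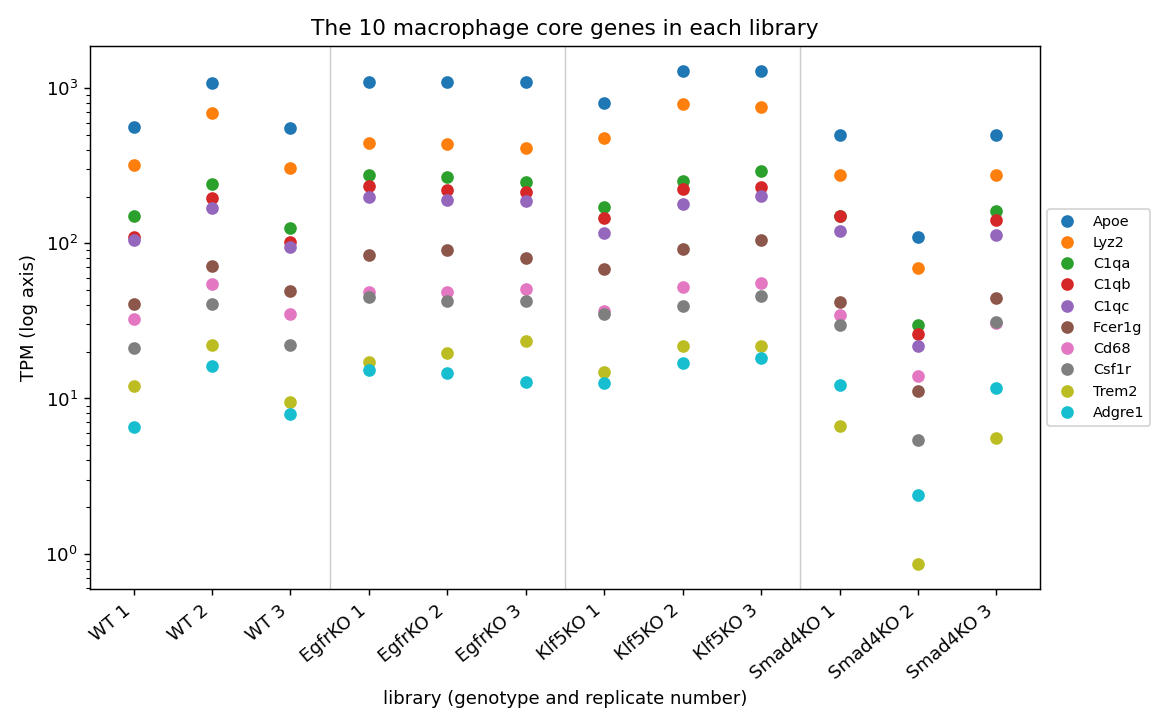
TPM (log axis) of the 10 genes in each of the 12 libraries, 1 colour per gene. Smad4KO replicate 2 is the lowest of the 12 libraries for every gene, and Trem2 there is at 0.855 TPM.

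Apoe was the most abundant of the 10, at a mean of 833 TPM over the 12 libraries, and Lyz2 followed at 438 TPM. The C1q chains came next at 197 (C1qa), 166 (C1qb) and 142 TPM (C1qc), in that order in each library but Smad4KO replicate 1, where C1qb (150 TPM) and C1qa (149 TPM) were level. Fcer1g averaged 65.0, Cd68 41.2 and Csf1r 33.4 TPM. Trem2, at 14.6 TPM, and Adgre1, at 12.3 TPM, were the least abundant, and their order turned in Smad4KO.

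C1qa was at 151, 240 and 125 TPM in WT replicates 1, 2 and 3, and at 278, 267 and 250 TPM in EgfrKO. It was at 171, 253 and 293 TPM in the Klf5KO-labelled libraries and at 149, 29.9 and 162 TPM in Smad4KO. WT and Smad4KO overlapped, EgfrKO lay above both, and the Klf5KO-labelled libraries reached from the WT range to the highest value of all.
C1qb and C1qc had the same shape. C1qb ranged over 102 to 198 TPM in WT, 214 to 233 in EgfrKO, 147 to 229 in Klf5KO and 25.9 to 150 in Smad4KO. C1qc ranged over 95.4 to 170 TPM in WT, 188 to 199 in EgfrKO, 117 to 202 in Klf5KO and 21.8 to 120 in Smad4KO.

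Lyz2 differed from the C1q genes in its order of genotypes. It was at 321, 688 and 305 TPM in WT and 447, 440 and 413 TPM in EgfrKO, so that EgfrKO lay inside the WT range. It was at 478, 789 and 758 TPM in Klf5KO and at 276, 69.3 and 275 TPM in Smad4KO. Smad4KO lay below WT in all 3 libraries, and the Klf5KO-labelled libraries lay above EgfrKO. The mean was 206 ± 119 TPM (SD, n = 3) in Smad4KO and 438 ± 216 TPM (SD, n = 3) in WT.
Apoe was at 564, 1079 and 553 TPM in WT and at 1105, 1094 and 1094 TPM in EgfrKO. It was at 799, 1301 and 1298 TPM in Klf5KO and at 496, 110 and 502 TPM in Smad4KO. All Smad4KO libraries were below all others, although replicates 1 and 3 were close to the lower WT libraries.

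Trem2 was at 12, 22.1 and 9.55 TPM in WT and at 17.1, 19.5 and 23.5 TPM in EgfrKO. It was at 14.7, 21.7 and 21.9 TPM in Klf5KO and at 6.67, 0.855 and 5.52 TPM in Smad4KO. The Smad4KO values were all below the lowest of the other 9 libraries, replicates 1 and 3 included. The mean was 4.35 ± 3.08 TPM (SD, n = 3) in Smad4KO and 14.5 ± 6.66 TPM (SD, n = 3) in WT.
Fcer1g was at 40.6, 72.0 and 49.3 TPM in WT and 84.1, 91.3 and 80.6 TPM in EgfrKO. It was at 68.2, 92.3 and 104 TPM in Klf5KO and 41.9, 11.2 and 44.4 TPM in Smad4KO. EgfrKO lay above WT, at a mean of 85.3 ± 5.42 against 54.0 ± 16.2 TPM (SD, n = 3), and Smad4KO overlapped WT.

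The surface and lysosomal genes had the smallest ratios between the highest and lowest genotype means, 1.97 for Csf1r, 1.87 for Cd68 and 1.81 for Adgre1. Csf1r ranged over 21.3 to 40.4 TPM in WT, 42.3 to 45.4 in EgfrKO, 35.1 to 45.9 in Klf5KO and 5.40 to 30.9 in Smad4KO. Adgre1 ranged over 6.50 to 16.1 TPM in WT, 12.7 to 15.2 in EgfrKO, 12.6 to 18.1 in Klf5KO and 2.38 to 12.2 in Smad4KO. Cd68 ranged over 32.7 to 54.6 TPM in WT, 48.7 to 50.8 in EgfrKO, 36.4 to 55.2 in Klf5KO and 14.0 to 34.6 in Smad4KO. Between the highest and the lowest of the 12 libraries Cd68 differed 3.96-fold, the least of the 10, and Trem2 27.4-fold, the most.

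Libraries of 1 genotype differed in all 10 genes at once. In Smad4KO replicate 2 the genes were at a median of 0.195 times the mean of the other 2 Smad4KO libraries, from 0.140 times for Trem2 to 0.427 times for Cd68, whereas the median over all tested genes was 1.04 times. In WT replicate 2 all 10 were above both other WT libraries, at a median of 1.87 times their mean, from 1.60 for Fcer1g to 2.23 for Adgre1. In Klf5KO replicate 1 all 10 were below the other 2, at a median of 0.662 times. The EgfrKO medians were 1.05, 0.990 and 0.954 times. Over the 45 pairs of members, Pearson's r of log2(TPM + 1) across the 12 libraries was 0.851 to 0.997 with a median of 0.963, and 0.935 to 0.997 after genotype means were subtracted. These r values describe libraries that share genotypes, and the spread that Smad4KO replicate 2 gives them is part of each.

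**Figure D2:**
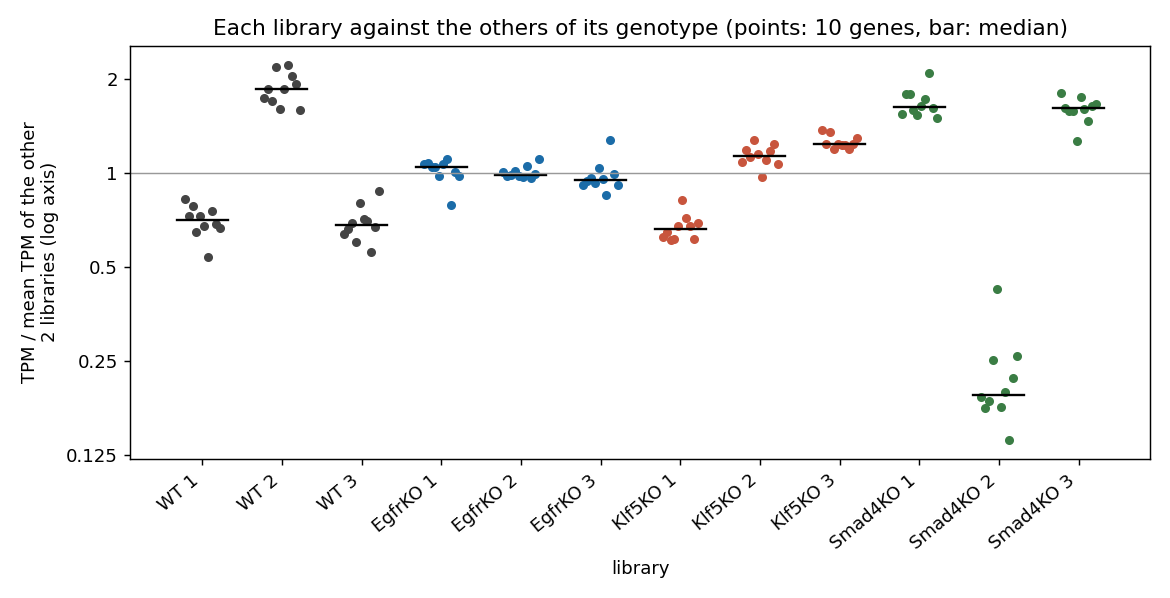
Each point is 1 of the 10 genes in 1 library, as its TPM divided by the mean TPM of the other 2 libraries of that genotype (log axis), with a bar at the median of the 10 genes. The median is 1.87 in WT replicate 2, 0.662 in Klf5KO replicate 1 and 0.195 in Smad4KO replicate 2.

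Other macrophage and general leukocyte markers moved with the same libraries, whereas the epithelial list was at a median of 1.07, 1.05 and 1.13 times the other libraries of the genotype in Smad4KO replicate 2, WT replicate 2 and Klf5KO replicate 1. In Smad4KO replicate 2, 14 of 15 other macrophage and monocyte genes were below the mean of the other 2 Smad4KO libraries (median 0.391 times) and so were 8 of 8 general leukocyte genes (0.507 times). There 6 of 7 tested epithelial genes were above (1.07 times), and 9 of 10 fibroblast genes were above (1.41 times). In WT replicate 2, 15 of 15 macrophage and monocyte genes were above (1.64 times), and in Klf5KO replicate 1, 12 of 15 were below (0.837 times) while 9 of 10 fibroblast genes were above (1.62 times). Lists of other leukocytes did not all move this way in each library. The neutrophil list did so, at medians of 0.644 times in Smad4KO replicate 2, 1.32 in WT replicate 2 and 0.79 in Klf5KO replicate 1. In the same order the dendritic list was at 0.986, 1.29 and 0.686 times, with 2 of 4 genes below in Smad4KO replicate 2. The T and NK list was at 0.693, 1.6 and 1.15 times, with 4 of 8 below in Klf5KO replicate 1. The mast list was at 0.976, 0.116 and 0.845 times, with both tested genes below in WT replicate 2. The part of the makeup of the sorted cells in the differences between genotypes was not tested.
Over genotypes, the general leukocyte list, led by Laptm5 and Cd52, summed to 118 to 158 TPM in WT, 181 to 189 in EgfrKO, 189 to 281 in Klf5KO and 58.5 to 113 in Smad4KO. The fibroblast list, led by Col1a1 and Col1a2, summed to 60.1 to 151, 145 to 156, 344 to 712 and 61.3 to 91.6 TPM in the same order. Lists of other cells were low: neutrophil (Mmp9, Retnlg) at most 39.1 TPM, dendritic (Cd209a, Itgax) 21.8, T and NK (Cd3d, Nkg7) 20.3, endothelial (Cdh5, Pecam1) 14.6, mast (Cpa3, Kit) 6.98 and B (Cd79b, Cd79a) 1.58 TPM. No gene of these lists was listed at 0 in all libraries.

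In EgfrKO all 10 genes had a mean difference from WT above 0 on the log2 scale. None passed the test, nor was any p under 0.05 before adjustment (0 of 10). Their median difference was 0.67 on the log2 scale against 0.14 over all tested genes, of which 31.3% were called higher and 12% lower. C1qb had the largest estimate, 0.77 ± 0.53 (SE; limma adjusted p = 0.267), at 1.63 times the WT mean, and Fcer1g the smallest adjusted p, 0.194, at 0.69 ± 0.41. Lyz2 was at 0.09 ± 0.47 (adjusted p = 0.896), and under median-of-ratios scaling at -0.064. Its mean TPM was 0.988 times that of WT. For C1qa, C1qb, C1qc, Csf1r, Apoe and Fcer1g, 6 of 10, the libraries of EgfrKO and WT did not overlap, as for 56% of all tested genes.
The test took its spread from all 12 libraries, Smad4KO replicate 2 among them. Without Smad4KO replicate 2 those same 6 genes were called higher in EgfrKO, with adjusted p from 0.014 (Fcer1g) to 0.0494 (Apoe), beside 31.8% of all tested genes. With only the 6 libraries of EgfrKO and WT, 5 were called, C1qa, C1qb, C1qc, Csf1r and Fcer1g, beside 30.3% of all tested genes.

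In the Klf5KO-labelled libraries too, all 10 genes had a mean above WT and none passed the test (0 of 10 had a p under 0.05 before adjustment), where 55.2% of all tested genes were called higher and 11.1% lower. Under median-of-ratios scaling Cd68 was on the other side of 0, at -0.10. The median difference of the 10 was 0.58, against 0.31 over all tested genes. Fcer1g came nearest, at 0.72 ± 0.41 (limma adjusted p = 0.141) and 1.64 times the WT mean, and Lyz2 was at 0.69 ± 0.47 (adjusted p = 0.215). None of the 10 separated the groups of libraries, which 69% of all tested genes did, with Klf5KO replicate 1 low and WT replicate 2 high among their groups. Without Smad4KO replicate 2, 6 genes were called higher (C1qb, Lyz2, Csf1r, Adgre1, Apoe and Fcer1g, with adjusted p from 0.00651 to 0.0448), beside 55.9% of all tested genes.

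In Smad4KO all 10 genes had a mean below WT, and Trem2 and Lyz2, 2 of 10, fell by the test, beside 17.4% of all tested genes called lower and 32.2% called higher. The median difference was -0.85, against 0.10 over all tested genes. Trem2 was at 0.299 times the WT mean, a difference of -1.70 ± 0.45 (SE; limma adjusted p = 0.00899). Lyz2 was at 0.471 times, -1.22 ± 0.47 (adjusted p = 0.049). Apoe was at 0.504 times, -1.20 ± 0.49 (adjusted p = 0.06), and with Trem2 and Lyz2 made the 3 genes whose libraries did not overlap, as 59.1% of all tested genes did not. The C1q genes, Cd68, Csf1r, Adgre1 and Fcer1g were at 0.603 to 0.861 times the WT mean, with adjusted p from 0.0806 (Cd68) to 0.565 (Adgre1).
These differences were smaller without Smad4KO replicate 2. Then only Trem2 was called, at -1.05 ± 0.29 (adjusted p = 0.0128), beside 16.4% of all tested genes, and C1qb, Csf1r and Adgre1 were on the other side of 0 at 0.17, 0.18 and 0.31. The values of C1qa (-0.09) and C1qc (-0.03) were near 0, those of Lyz2 and Apoe were -0.57 and -0.48, and Lyz2 had an adjusted p of 0.164. Without Smad4KO replicate 1, 5 genes were called lower (Lyz2, Cd68, Trem2, Apoe and Fcer1g), beside 15.6% of all tested genes. Without Smad4KO replicate 3, 4 were (those without Cd68), beside 15%.
The call on Trem2 was made in each of the 12 fits without 1 library, with adjusted p from 0.00423 to 0.0393, and in each of 10 other alternatives, with 0.00597 to 0.0401. The call on Lyz2 stood at the threshold and was lost without any 1 library other than Smad4KO replicate 1 or 3. Its adjusted p was 0.182 without WT replicate 2 and 0.051 to 0.0629 without 1 of the other 2 WT libraries, an EgfrKO or a Klf5KO library.

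**Figure D3:**
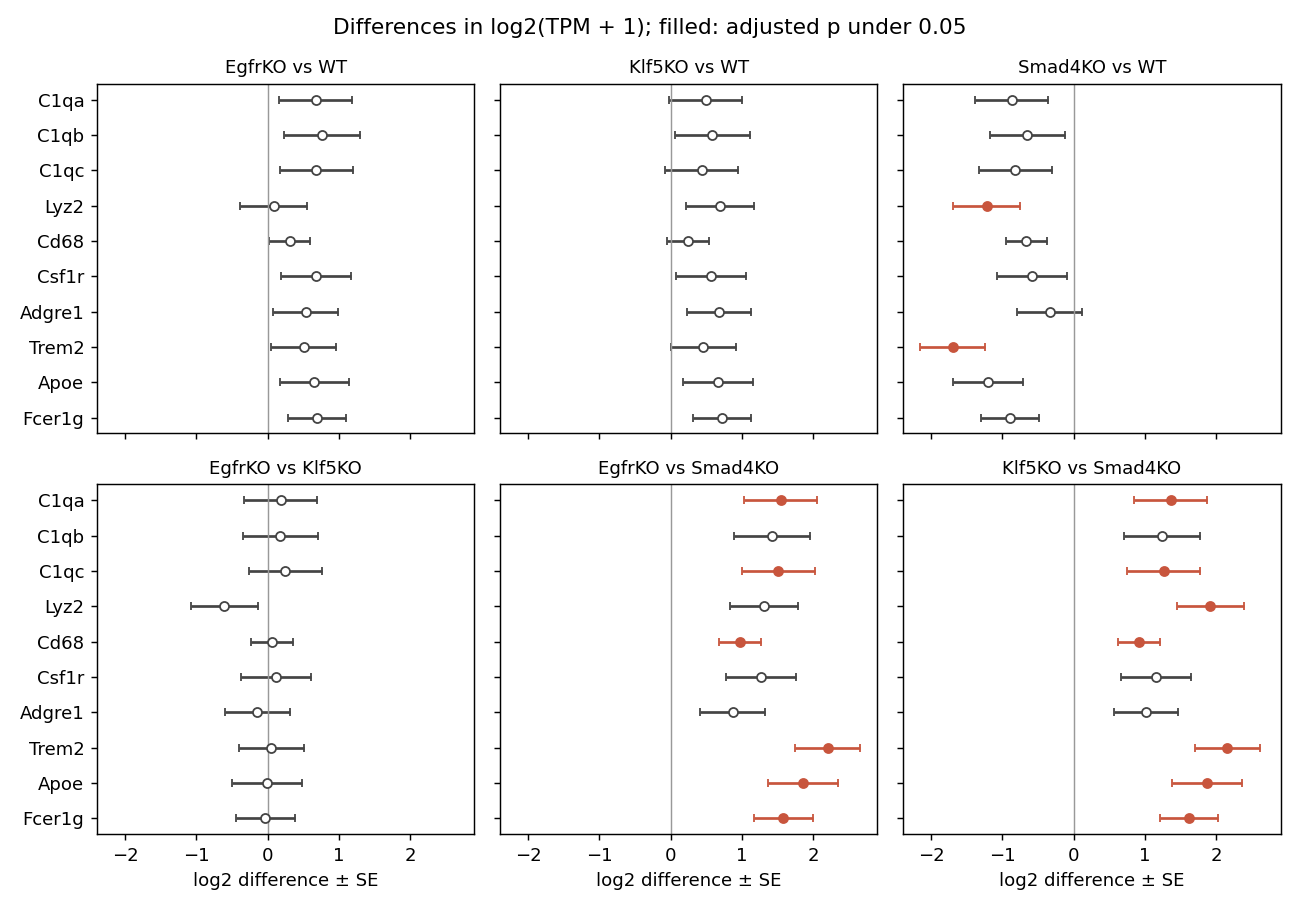
Differences in mean log2(TPM + 1) with standard errors for the 10 genes in the 6 contrasts, the first genotype named minus the second; filled red points have a limma adjusted p under 0.05. No point is filled for EgfrKO or Klf5KO against WT, 2 are for Smad4KO against WT, and 6 and 7 are for EgfrKO and Klf5KO against Smad4KO.

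The contrasts with WT share the WT libraries, so the knockouts were also compared with each other. EgfrKO and Klf5KO-labelled libraries did not pass the test in any of the 10 genes (0 of 10 with a p under 0.05 before adjustment), where 14.7% of all tested genes were called higher and 40.5% lower in EgfrKO, or 26.4% and 25.3% under median-of-ratios scaling. Lyz2 had the largest difference, -0.60 ± 0.47 (limma adjusted p = 0.3), and was the 1 gene whose libraries did not overlap, as in 61.2% of all tested genes. The other 9 lay between -0.14 (Adgre1) and 0.25 (C1qc), with standard errors of 0.29 to 0.53.

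Against Smad4KO, 6 of 10 genes were higher in EgfrKO, beside 18.7% of all tested genes called higher and 14.5% lower. Trem2 was 4.61 times as high (2.20 ± 0.45, adjusted p = 0.00324), Apoe 2.97 times (1.86 ± 0.49, 0.0124) and Fcer1g 2.62 times (1.58 ± 0.41, 0.0114), by limma. C1qa, C1qc and Cd68 were called at adjusted p of 0.0371, 0.0414 and 0.0242. For all 10 genes the EgfrKO libraries lay above the Smad4KO libraries, and 47.9% of all tested genes likewise did not overlap. Trem2, Apoe and Fcer1g were called in each fit without 1 library. C1qa, C1qc and Cd68 were all lost without EgfrKO replicate 1, 2 or 3, where 3 genes stayed called. C1qc was also lost without WT replicate 1, Klf5KO replicate 2 or Smad4KO replicate 2 (adjusted p = 0.0508 to 0.0519), and Cd68 without Smad4KO replicate 2 (0.0613). Leaving out Smad4KO replicate 1 or replicate 3 gave 9 calls each, beside 15.4% and 14.7% of all tested genes called higher.
In the Klf5KO-labelled libraries 7 of 10 genes were higher than in Smad4KO, beside 45.5% of all tested genes called higher and 18.3% lower, or 29.1% and 31.2% under median-of-ratios scaling. For 8 of 10 the libraries did not overlap, beside 67.2%. Trem2 was 4.47 times as high (2.15 ± 0.45, limma adjusted p = 0.00139), Lyz2 3.27 times (1.91 ± 0.47, 0.00377), Apoe 3.07 times (1.87 ± 0.49, 0.00541) and Fcer1g 2.71 times (1.61 ± 0.41, 0.00454). These 4 were called in each fit without 1 library and under median-of-ratios scaling. C1qa (0.0351), C1qc (0.0491) and Cd68 (0.0169) lost their calls without Klf5KO replicate 2, Klf5KO replicate 3 or Smad4KO replicate 2 and under that scaling. C1qc was lost in addition without any 1 WT or EgfrKO library (adjusted p = 0.0512 to 0.0627). Without Smad4KO replicate 1 or replicate 3 all 10 were called, beside 43.1% and 41.3% of all tested genes called higher. C1qb, Csf1r and Adgre1 were not called against Smad4KO in either comparison.

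Dividing each gene by the mean of the C1q genes in the same library gives its level relative to theirs. Whether this takes out all that the genes share was not tested. The C1q genes kept their own proportions: C1qa was 1.07 to 1.24 times, C1qb 0.90 to 1.07 times and C1qc 0.806 to 0.888 times their mean in all 12 libraries. Trem2 was 0.0331 to 0.0476 of the C1q mean in Smad4KO and 0.0721 to 0.109 in the other 9 libraries, so Smad4KO replicates 1 and 3 separated from the rest as well as replicate 2. Apoe was 3.54 to 4.26 times the C1q mean in Smad4KO and 4.64 to 5.95 times elsewhere. Lyz2 was 1.89 to 1.95 times in EgfrKO, 1.97 to 2.68 in Smad4KO, 2.64 to 3.40 in WT and 3.14 to 3.61 in Klf5KO. EgfrKO was the lowest of the 4 in Lyz2 relative to C1q, and its 3 libraries did not overlap any other genotype. The gap to Smad4KO was small, with Smad4KO replicates 1 and 3 both at 1.97 times. Such separations were common: with the C1q genes left out, 20 of 42 comparisons of a gene's ratio between a pair of genotypes did not overlap.
Cd68 was 0.540 of the C1q mean in Smad4KO replicate 2 and 0.206 to 0.326 in the other 11 libraries. Csf1r, at 0.175 to 0.243, and Fcer1g, at 0.299 to 0.472, had narrower ranges. Adgre1 ranged over 0.0535 to 0.0919 and was highest in Smad4KO replicate 2. All Smad4KO libraries lay above all WT libraries in Adgre1 (0.0842 to 0.0919 against 0.0535 to 0.0795). The same held for Csf1r (0.209 to 0.222 against 0.175 to 0.206). In the limma fit below with a C1q covariate, neither Adgre1 (adjusted p = 0.0803) nor Csf1r (0.308) was called in Smad4KO against WT. Cd68 lay below WT (0.269 to 0.326) in EgfrKO (0.206 to 0.234) and Klf5KO (0.229 to 0.252). Apoe lay above WT (4.64 to 5.33) in Klf5KO (5.38 to 5.95). With 3 libraries against 3, an exact permutation test of these ratios cannot give a p below 0.1, so none is used.

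**Figure D4:**
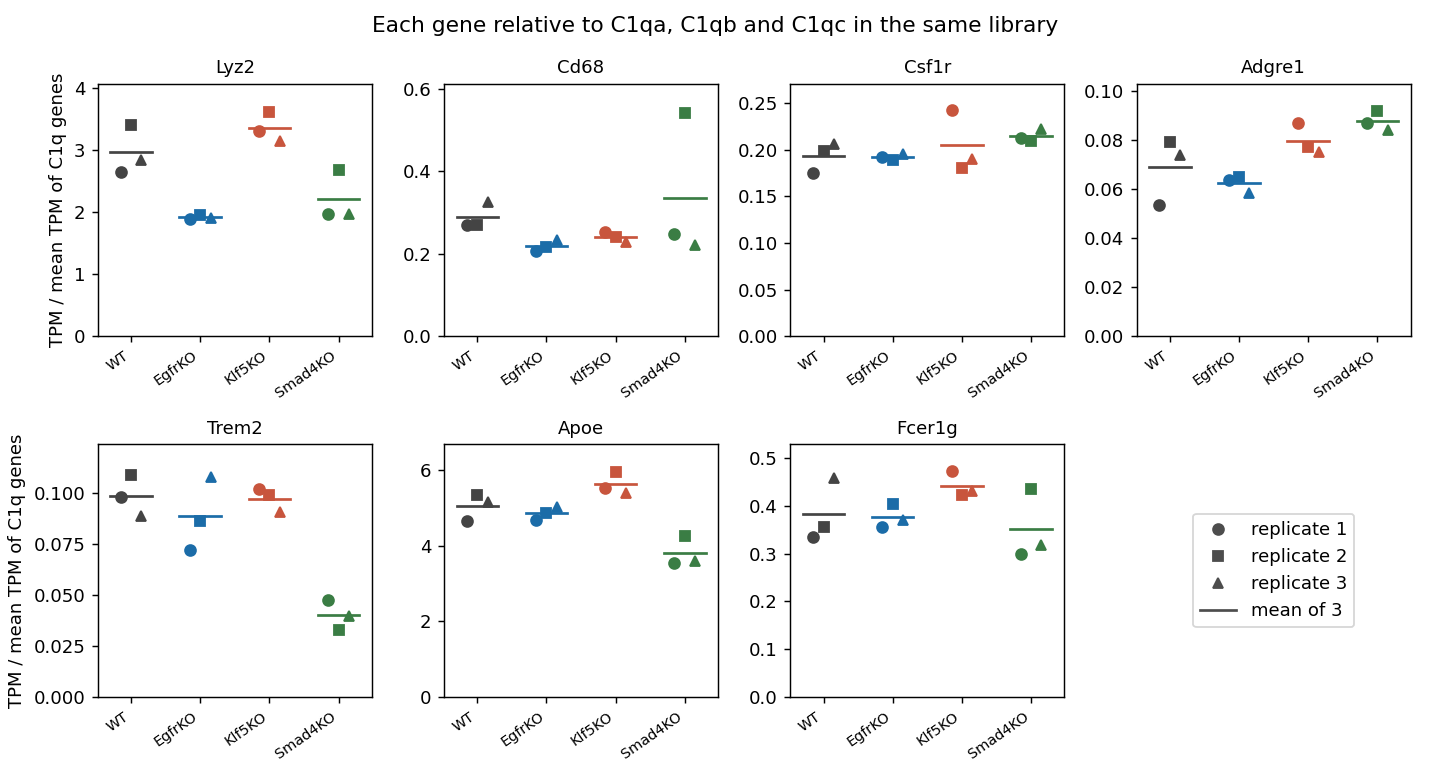
TPM of 7 genes divided by the mean TPM of C1qa, C1qb and C1qc in the same library, with 3 libraries (symbols) and their mean (bar) per genotype. Trem2 is at 0.0331 to 0.0476 in Smad4KO, below the 0.0721 to 0.109 of all other libraries, and Lyz2 is at 1.89 to 1.95 in EgfrKO.

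A limma fit with the mean log2 level of the C1q genes as a covariate, added after the data were seen, compared the other 7 genes at an equal C1q level. In Smad4KO against WT 4 of 7 were lower, beside 17.5% of all tested genes: Trem2 at -1.04 ± 0.15 (adjusted p = 0.000235), Lyz2 at -0.53 ± 0.11 (0.00292), Apoe at -0.47 ± 0.07 (0.000292) and Fcer1g at -0.29 ± 0.10 (0.0323). In EgfrKO against WT only Lyz2 was called, at -0.55 ± 0.11 (0.00301), beside 10.8% of all tested genes. In Klf5KO against WT, Apoe (0.19 ± 0.07, adjusted p = 0.0248) and Fcer1g (0.33 ± 0.09, 0.00951) were higher, beside 55.2%. Lyz2 (-0.79 ± 0.10, adjusted p = 9.76e-05) and Apoe (-0.20 ± 0.07, 0.0217) were lower in EgfrKO than in Klf5KO, beside 40.6%. Between EgfrKO and Smad4KO, Lyz2 was not called at an equal C1q level (-0.017 ± 0.134, limma adjusted p = 0.948). Trem2 was higher than in Smad4KO by 0.95 ± 0.18 in EgfrKO (0.00395; 3 of 7 genes called, beside 13.6%) and by 1.07 ± 0.17 in Klf5KO (0.000293; 4 of 7, beside 43.3%). The fit assumes that a gene follows C1q alike in all genotypes, and Smad4KO replicate 2 holds the lowest C1q level in it.

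The partners of these genes fell into those that moved with them and those that did not. Of 24 partner genes in 5 lists, 22 passed the filter on low values. Against WT, 6 (27.3%) were called higher and 2 (9.09%) lower in EgfrKO, beside 31.3% and 12% of all tested genes. In Klf5KO 12 (54.5%) were higher and 2 lower, beside 55.2% and 11.1%, and in Smad4KO 3 (13.6%) and 7 (31.8%), beside 32.2% and 17.4%. The shares in EgfrKO and Klf5KO were near those of all tested genes. The proteases that bind the C1q chains rose in all knockouts by the test, where the chains themselves were not called against WT. By their means, the chains lay above WT in EgfrKO and Klf5KO and below WT only in Smad4KO. C1ra was at 6.14, 6.52 and 4.18 TPM in WT, 17.6 to 20.8 in EgfrKO, 20.9 to 24.4 in Klf5KO and 62.7 to 65.8 in Smad4KO, 11.5 times the WT mean (3.32 ± 0.12, limma adjusted p = 6.67e-09). C1s1 was at 5.29, 4.08 and 2.14 TPM in WT, 11.7 to 14.6 in EgfrKO, 24.2 to 33.6 in Klf5KO and 42.3 to 46.5 in Smad4KO (3.29 ± 0.21, 2.25e-07). Both were highest where C1q was lowest by genotype, yet in Smad4KO replicate 2, at 62.7 and 45.0 TPM, they were level with the other Smad4KO libraries. Serping1, the inhibitor of these proteases, rose to 2.81, 3.83 and 2.19 times WT in EgfrKO, Klf5KO and Smad4KO (adjusted p = 0.000213, 1.25e-05 and 0.001). C1rb and C1s2 did not pass the filter.

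Among the ligands of CSF1R, Csf1 was at 6.89 to 6.98 TPM in WT and 16.5 to 18.5 TPM in Klf5KO, a rise of 2.54 times (limma adjusted p = 6.27e-07), and was not called in EgfrKO or Smad4KO. Il34 fell to 0.646 times WT in EgfrKO and 0.568 times in Smad4KO (adjusted p = 0.000915 and 9.73e-05). The receptor Csf1r was called in none of these contrasts.

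Tyrobp, the signalling adaptor of TREM2, was at 44.4, 67.5 and 32.9 TPM in WT and 47.3, 12.6 and 42.1 TPM in Smad4KO, and was not called against WT in any knockout. So in Smad4KO replicates 1 and 3 Trem2 was below all WT libraries and Tyrobp inside their range. Of the 6 genes of this list, Syk, the kinase downstream, fell to 0.450 times WT in Smad4KO (adjusted p = 0.00139) and rose to 1.92 times in Klf5KO (0.00154), by limma. Fcgr4, an activating Fc receptor, rose to 2.29 and 2.52 times WT in EgfrKO and Klf5KO (0.00262 and 0.000588). Fcgr3 fell to 0.577 times in Smad4KO (0.0365), which was lost without any 1 WT library or Smad4KO replicate 2 (0.0514 to 0.125). Fcgr1 and Fcgr2b were not called against WT.

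Among the lipid transport genes, in Klf5KO the cholesterol exporters Abca1 and Abcg1 and the lipase Lpl rose to 1.72, 3.04 and 2.60 times WT (limma adjusted p = 0.0104, 0.00104 and 0.000646). The call on Abca1 there was lost under median-of-ratios scaling (0.141). Abca1 fell in Smad4KO to 0.586 times (0.0287), which was lost without WT replicate 2 or 3 or Smad4KO replicate 2 (0.0741 to 0.119). Lrp1, a receptor for APOE, was not called against WT.

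Spi1, the gene of PU.1, was at 9.64, 17.7 and 8.14 TPM in WT and 8.33, 2.50 and 8.99 TPM in Smad4KO, and was not called against WT. Maf rose in EgfrKO and Klf5KO to 1.62 and 1.87 times WT (limma adjusted p = 0.0162 and 0.00213) and fell in Smad4KO to 0.676 times (0.0346). These calls on Maf were lost in EgfrKO without WT replicate 1 or EgfrKO replicate 2 (0.06 and 0.0512), in Smad4KO without WT replicate 2 or 3 or Smad4KO replicate 2 (0.0684 to 0.125), and in both EgfrKO and Klf5KO under median-of-ratios scaling (0.0585 and 0.0506). Irf8 rose to 1.70 times WT in EgfrKO (0.00106) and 4.85 times in Klf5KO (2.02e-07). Cebpb fell in both, to 0.669 and 0.649 times (0.000515 and 0.000117). Cebpa rose in Klf5KO (1.25 times, 0.0188) and fell in Smad4KO (0.768 times, 0.0148). The former call did not hold when WT replicate 1 (0.0798) or Klf5KO replicate 3 (0.0696) was left out, and the difference was -0.028 under median-of-ratios scaling, and the latter was lost without WT replicate 2 or 3 or Smad4KO replicate 2 (0.0556 to 0.064).

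**Figure D5:**
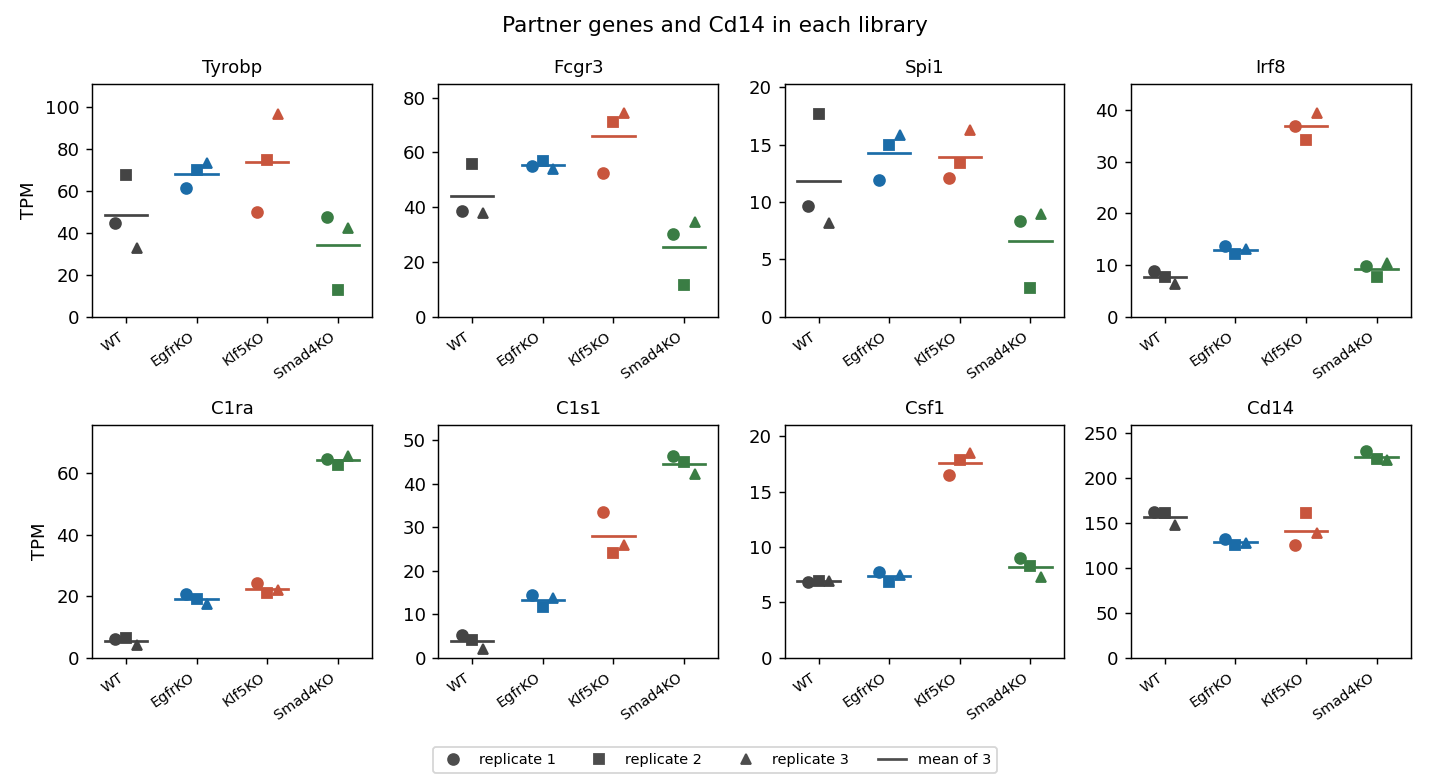
TPM of 7 partner genes and of Cd14 in each library, with 3 libraries (symbols) and their mean (bar) per genotype. Tyrobp, Fcgr3 and Spi1 are lowest in Smad4KO replicate 2, whereas C1ra, C1s1 and Cd14 are at about the same level in all 3 Smad4KO libraries.

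The genes whose log2 level across the 12 libraries was most like the mean of the 10 were Unc93b1, which carries nucleic acid Toll-like receptors to endosomes (Pearson's r = 0.989), Rab3il1 (0.985), the endolysosomal nuclease gene Pld4 (0.981), Ms4a6b (0.978), Fcgr3 (0.978), Tyrobp (0.978), Kctd12 (0.977) and Spi1 (0.973). Spearman's rho for these 8 was 0.811 to 0.972, and without Smad4KO replicate 2 and WT replicate 3, the libraries farthest from the median, r was 0.882 (Kctd12) to 0.980 (Unc93b1). After genotype means were subtracted r was 0.952 to 0.991. Of the 13652 other tested genes, 87, or 0.637%, had r of at least 0.9, and the median over all of them was 0.134. The points share genotypes, so r is given as a description.
By list, the median r was 0.964 for the 6 TREM2 and Fc receptor partners, 0.867 for general leukocyte genes and 0.828 for other macrophage and monocyte genes. It was 0.413 for fibroblast genes, and -0.381 after genotype means were subtracted. The epithelial genes had -0.391 and the C1 proteases with their inhibitor -0.25.

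Of the 15 other macrophage and monocyte genes, 3 (20%) were called higher and 1 lower in EgfrKO against WT, beside 31.3% and 12% of all tested genes. In Klf5KO 7 (46.7%) were higher and 0 lower, beside 55.2% and 11.1%, and in Smad4KO 2 (13.3%) and 5 (33.3%), beside 32.2% and 17.4%. Cd14, the lipopolysaccharide coreceptor and the most abundant of them, did not follow the 10 genes. It was at 231, 222 and 220 TPM in Smad4KO, above the 148 to 162 TPM of WT (0.51 ± 0.08, limma adjusted p = 0.000164), with Smad4KO replicate 2 level with the other 2. It fell in EgfrKO, to 126 to 132 TPM (adjusted p = 0.01). Ctss, a lysosomal protease, did follow them, at 66.5 to 128 TPM in WT, 171 to 177 in EgfrKO, 173 to 281 in Klf5KO and 25.7 to 79.0 in Smad4KO. It rose in Klf5KO (1.46 ± 0.38, adjusted p = 0.005), and in EgfrKO it was at 1.04 ± 0.38 (0.0443), a call lost without WT replicate 1 or 3, any EgfrKO library, or Klf5KO replicate 2 or 3 (0.0509 to 0.133).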

How the data were processed

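Gene-level TPM values of the 12 libraries were taken from a table that the authors deposited. Per the submitters' processing notes it was made with Salmon and the mm10 build, with no version of Salmon or transcript annotation named. Read depth cannot be had from TPM and is unknown, so no counting interval is given. A gene entered the tests with a TPM of 1 or more in 3 or more libraries (13662 genes), and limma 3.58.1 (R 4.3.3) was run on log2(TPM + 1), a scale that understates the change of low genes. A model of 4 genotype means was fitted to all 12 libraries (eBayes with a trend), with 6 two-sided contrasts and p-values adjusted by the Benjamini-Hochberg method over all tested genes within each contrast. The functions were tested on simulated data. The 10 genes, the 5 partner lists and the 10 marker lists were chosen with earlier results of these data known. All members, any partner gene, the 8 genes most like the members the 2 most abundant genes of each marker list, Lyz1 as the near copy of Lyz2, and Egfr, Klf5 and Smad4 as label checks could be named, and a gene named outside this rule is said to be so. Some genes of the partner lists are counted but not reported here by name. The labels do not say whether libraries came from separate tumours or animals, and the spread behind the p-values is that between libraries, which may be technical. A fit with the mean log2 level of the C1q genes as a covariate was chosen once the data had been seen. The other alternatives were another pseudocount, other filters, 3 other scalings, no trend and a robust spread in eBayes, the compared groups fitted alone, a replicate block and leaving out each library.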

Additional observations from a re-analysis of the deposited data

How the results depend on the processing

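Over the 60 pairs of a macrophage gene and a contrast and 22 alternatives, 1184 of 1320 values kept their direction and side of the threshold, 73 lost a call, 39 gained one and 24 changed sign. Only a pair called before any alternative was applied could lose its call. These were 2 genes in Smad4KO against WT, and 6 in EgfrKO and 7 in Klf5KO against Smad4KO. The number of the 10 genes called in EgfrKO against WT was 0, with 5 in a fit of the 2 groups compared and 0 to 6 without 1 library. In Klf5KO against WT it was 0, with 1 and 0 to 6. In Smad4KO against WT it was 2, with 1 under no filter, quantile normalization, no trend, a robust spread or the 2 groups alone, and 1 to 5 without 1 library. In EgfrKO against Klf5KO it was 0, with 1 in the 2 groups alone. EgfrKO against Smad4KO gave 6, with 3 under a robust spread and 3 to 9 without 1 library. It gave 4 under no filter, no trend or the 2 groups alone, where C1qa and C1qc were lost. Klf5KO against Smad4KO gave 7, with 4 under median-of-ratios scaling or quantile normalization and 4 to 10 without 1 library. There no filter, a robust spread or the 2 groups alone gave 5, again without C1qa and C1qc. With the C1q mean as a covariate, chosen after the data were seen, these counts over 7 genes were 1, 2, 4, 2, 3 and 4 in the same order. The cause was not tested. The difference of Lyz2 in EgfrKO against WT became -0.064 under median-of-ratios scaling and -0.55 with the covariate, and was -0.12 to 0.47 without 1 library. In Klf5KO against WT, under median-of-ratios scaling and quantile normalization, that of Cd68 became -0.10 and -0.051 and that of Cebpa -0.028 and -0.032. Without 1 library the differences in Smad4KO against WT were -0.68 to 0.31 for Adgre1, -1.08 to 0.17 for C1qb and -0.98 to 0.18 for Csf1r. In EgfrKO against Klf5KO, where no difference but that of Lyz2 was far from 0, median-of-ratios scaling gave 0.049 for Adgre1, 0.197 for Apoe and 0.175 for Fcer1g, and quantile normalization 0.055 for Adgre1 and 0.129 for Fcer1g, each with its sign changed. There, without 1 library, the ranges were -0.041 to 0.347 for C1qa, -0.026 to 0.295 for C1qb, -0.122 to 0.172 for Cd68, -0.126 to 0.156 for Trem2, -0.243 to 0.108 for Apoe and -0.202 to 0.101 for Fcer1g. Among 86 calls on partner genes, Cd14 and Ctss, 109 of 1886 values lost the call and 2 changed sign. Same-numbered libraries of different genotypes did not deviate together (r of -0.149 to 0.116 over 18 pairs), so the numbers are not taken as a pairing. With a replicate block 1 of the 10 genes, Trem2, was called in Smad4KO against WT, and 4 and 5 were against Smad4KO in EgfrKO and Klf5KO, and the block gave 0 calls in the other contrasts. Each leave-out of 1 library that left 2 in a group used the spread of all groups. Depth is not known from TPM, so low values such as Trem2 in Smad4KO replicate 2 carry an unknown counting error.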
